A study of Mus musculus with 14 samples.

Results

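HuBL aorta was compared with HuBL liver: 3 aorta libraries against 4 liver libraries, which are 7 of the 14 libraries of the series, chosen by the tissue and genotype in their labels. All 7 libraries are labelled HuBL, normal laboratory diet and 52 weeks, and the labels give no age or sex beyond that. The labels do not spell out HuBL; in earlier work of this field these mice carry a human apolipoprotein B transgene, which both tissues share here. Nothing in the labels says that libraries came from separate animals, or that an aorta and a liver came from the same animal, and the spread behind each p-value is that of the libraries as deposited, whatever its source. The other 7 libraries, labelled BT3xHuBL, are not used. The aortas were sequenced more deeply, with 41933263 to 64835560 counts each, than the livers, with 13228123 to 17405230. The tissues were deposited as separate tables with library numbers in separate blocks, so tissue, sequencing run and table cannot be told apart.

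The aorta is a muscular and elastic tube. Its middle layer is smooth muscle between sheets of elastin, its inner lining is endothelium, and its outer layer holds fibroblasts, nerves and fat; in hypercholesterolaemic mice, lipid-filled macrophages and altered smooth muscle cells gather in its inner layer as plaque. The liver is mostly hepatocytes, which secrete the plasma proteins, clotting factors and lipoproteins, make bile acids and glucose, dispose of nitrogen as urea, and break down foreign compounds. Liver also has its own fenestrated endothelium, its own resident macrophages (Kupffer cells) and vitamin A storing stellate cells. Since these are whole tissues, fewer cells of a type and less RNA per cell cannot be told apart.

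Levels are given as CPM (counts scaled to a total of 1000000 per library after adjustment of library sizes), and fold changes as log2 of aorta over liver, so that positive values are higher in aorta. The sequencing kit primes at the 3′ end of a transcript, which gives long and short transcripts equal weight. Levels of different genes can then be ranked within a tissue, with a limit for genes with pseudogene copies that is given below. A difference is called large where it was at least 8-fold with an adjusted p under 0.05 (edgeR quasi-likelihood test, Benjamini-Hochberg adjustment over all 14445 tested features). By this rule 2407 features (16.7% of those tested) were higher in aorta and 1352 (9.36%) higher in liver, 26% in all. At the adjusted p alone, 6421 features (44.5%) were higher in aorta and 5664 (39.2%) higher in liver. In 82.9% of tested features the 3 aorta values and the 4 liver values did not overlap, with every aorta library higher in 44.2% and every liver library higher in 38.7%. Passing the test or not overlapping is therefore the common state of a gene in this comparison, and the counts below are read against these shares. The 95% interval of the fold change lay within 2-fold in either direction for 4503 features (31.2%).

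These fold changes are relative to the scaling between tissues. The median over all tested features was 0.10. Without scaling beyond library totals it shifted by 0.76 and 74.1% of large differences were higher in aorta instead of 64%; with libraries scaled to the ribosomal and proteasome genes it shifted by -1.17 and the share was 42.6%. Upper quartile scaling shifted it by 0.18. Differences of about 1 on the log2 scale therefore take their direction from the scaling, whereas no named gene with a large difference changed direction under any of these scalings.

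A second property of the tables moves with the comparison. Many common genes have processed pseudogene copies elsewhere in the genome, and a read that fits several places can be kept or dropped by a pipeline. Of tested features, 13590 could be given a number of pseudogene transcripts that match them over at least 150 bases at 90% identity or more in the GENCODE M21 annotation. The median log2 fold change was 0.07 for the 11794 genes with 0 copies and 0.08 for 1 to 2 copies, then 0.62 for 3 to 5, 2.20 for 6 to 10 and 2.46 for over 10 copies. Of the 377 genes with at least 3 copies, 103 (27.3%) were large aorta-higher calls and 14 (3.71%) large liver-higher calls. Gapdh, the glycolytic enzyme often used as a reference gene, has 190 copies and stood at 581 CPM in aorta and 2.21 CPM in liver. Rpl19, a ribosomal protein gene with 17 copies, stood at 310 to 417 CPM in aorta and 0.742 to 1.24 CPM in liver. Whether read handling differed between the tables was not tested, and it cannot be told apart from tissue; the number of copies is given below beside each named gene that has 3 or more. Names of some features carry a mark for overlap with another gene, among them Actg1, Alas2, C3, Cpt1b, Ctsb, Elovl3, Hadha, Hbb-bs, Hoxa3, Pltp, Pzp, Srf and Xist, and reads of the partner could enter them since no source used here states the strand setting.

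**Figure D1:**
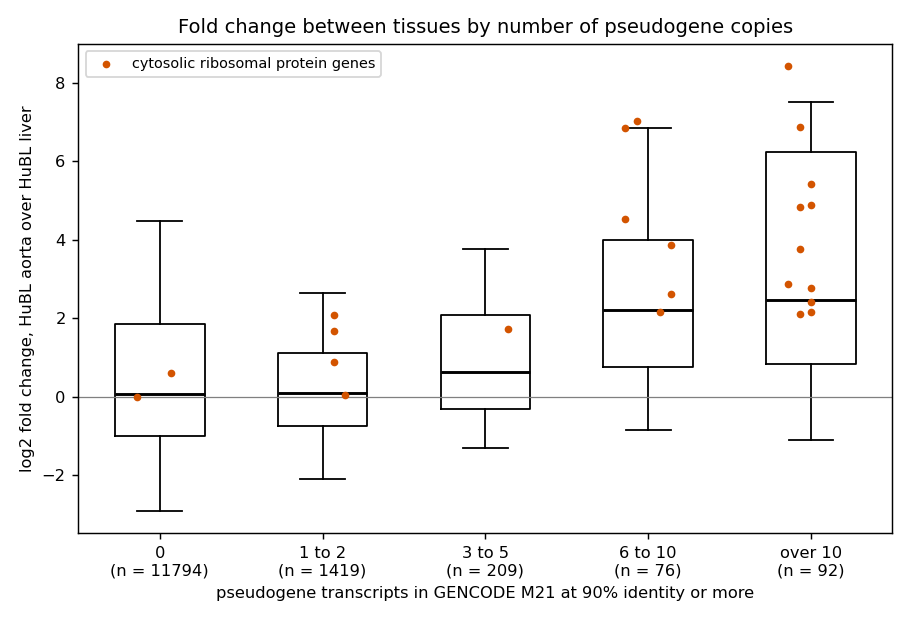
Log2 fold change of aorta over liver (vertical axis) for tested features grouped by their number of pseudogene copies (horizontal axis). Boxes span the quartiles with the median as a line, whiskers the 10th to 90th percentile, and orange points are the cytosolic ribosomal protein genes. Medians are near 0 up to 2 copies and 2.20 or more beyond 5 copies.

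Sequences around the start sites of a few abundant genes of the hepatocyte plasma protein and smooth muscle lists are shown. The printed set favours windows with a match: Alb, Gc and Myl9 hold a marked motif. Windows were also taken for Apoa1, Apoa2, Myl6 and Cald1 and are not printed. Those of Apoa1, Myl6 and Cald1 held no searched motif, and that of Apoa2 held TATAAA only. Other windows of Myl6 and Cald1 did hold one. The windows are from RefSeq (GRCm38.p6), run from 250 bases before to 50 bases after the start, and are printed in the direction of transcription. Capitals mark GTTAAT, the core of a motif known from start sites of hepatocyte genes, in albumin (Alb, chr5:90460620-90460919, plus strand) and in the vitamin D binding protein (Gc, chr5:89457849-89458148, minus strand). In Myl9, a smooth muscle myosin light chain (chr2:156775214-156775513, plus strand), they mark the CArG box, the motif of serum response factor. Acta2, smooth muscle actin (chr19:34255324-34255623, minus strand), is shown beside it and has no match to the strict CArG box in this window. It does hold ccctatatgg and ccttgtttgg, near matches that the strict search did not count.
Alb: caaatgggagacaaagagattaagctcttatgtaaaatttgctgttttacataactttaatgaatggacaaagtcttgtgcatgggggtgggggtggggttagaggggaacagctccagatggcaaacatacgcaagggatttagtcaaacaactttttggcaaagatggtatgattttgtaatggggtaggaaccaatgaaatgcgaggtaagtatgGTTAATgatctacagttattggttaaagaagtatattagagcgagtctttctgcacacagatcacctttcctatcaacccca
Gc: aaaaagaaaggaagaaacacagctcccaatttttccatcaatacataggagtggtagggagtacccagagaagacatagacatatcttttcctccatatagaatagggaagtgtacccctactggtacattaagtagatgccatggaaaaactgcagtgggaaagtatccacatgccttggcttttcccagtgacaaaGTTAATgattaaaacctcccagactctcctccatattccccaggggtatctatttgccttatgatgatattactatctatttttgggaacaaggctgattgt
Myl9: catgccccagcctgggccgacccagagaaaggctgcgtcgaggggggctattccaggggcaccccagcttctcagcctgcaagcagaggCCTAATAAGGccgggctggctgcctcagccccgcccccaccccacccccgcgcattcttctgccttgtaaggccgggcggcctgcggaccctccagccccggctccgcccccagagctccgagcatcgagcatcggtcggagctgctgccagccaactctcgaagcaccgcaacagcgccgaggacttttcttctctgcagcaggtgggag
Acta2: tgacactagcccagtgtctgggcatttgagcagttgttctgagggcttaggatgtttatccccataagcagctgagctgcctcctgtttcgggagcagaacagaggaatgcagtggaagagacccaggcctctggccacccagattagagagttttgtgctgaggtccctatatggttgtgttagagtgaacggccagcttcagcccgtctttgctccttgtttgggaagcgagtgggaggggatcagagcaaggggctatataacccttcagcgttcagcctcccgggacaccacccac
The match in Alb starts 32 bases before the start site, that in Gc 52 bases before it, and that in Myl9 161 bases before it. Both strands were searched, and no other searched motif overlaps these. GTTAAT was found in 3 of the 15 hepatocyte plasma protein genes that had a window (Alb, Gc and Vtn, 20%) and in 7.1% of all 32851 windows of this length. Shares of a list count genes, some of which had several windows (18 windows for these 15 genes, 16 for the 14 smooth muscle genes). They can therefore run higher than shares of all windows. TATAAA, the letters of the TATA box, was found anywhere in the window in 7 of these 15 genes (46.7%) and in 13.6% of all windows. Its position was not required to be that of a TATA box, and in Apoa2 the match starts 212 bases before the start site. The strict CArG box was found in 2 of 14 smooth muscle genes with a window (Myl6 and Myl9, 14.3%) and in 1.63% of all windows. CAAAGTCC, a form of the HNF4 site, was in none of the 15 hepatocyte genes and in 1.42% of all windows. These are matches of letters in a window, not evidence of binding.

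The tissues spread their transcripts in different ways. In liver, 181 to 231 features held 50% of the counts, against 658 to 718 in aorta, and the 10 most abundant features took 17.9% to 20.1% of counts in liver and 8.13% to 8.65% in aorta. Thinning every library to the size of the smallest moved these numbers by at most 1 feature. Of the 200 most abundant features of each tissue, 33 were in both. Among the top 200 of aorta 101 were large aorta-higher calls, and among the top 200 of liver 151 were large liver-higher calls.

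**Figure D2:**
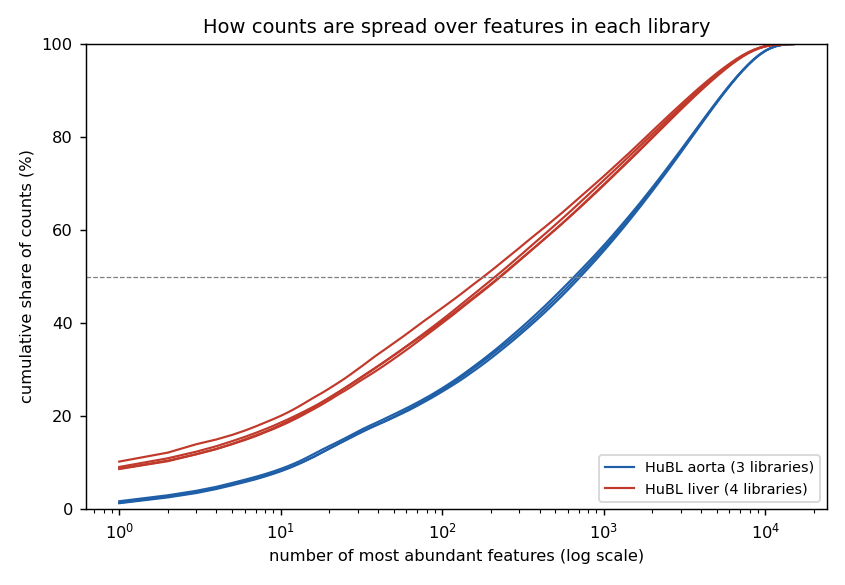
Cumulative share of counts in percent (vertical axis) held by the most abundant features (horizontal axis, log scale), 1 line per library. The 4 liver lines cross 50% at 181 to 231 features and the 3 aorta lines at 658 to 718.

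The liver list was led by albumin. Alb (chromosome 5, 90460897 to 90476602 in GENCODE M21, plus strand) took 9.15% of liver counts, with 134321, 109080, 106750 and 109505 CPM in the 4 libraries; it was at 0.46, 0.0357 and 0.093 CPM in the 3 aortas. Apolipoprotein E (Apoe) came second, followed by transferrin (Trf, the iron carrier), Apoa1 (the main protein of high density lipoprotein), Serpina3k (a protease inhibitor of a family of close copies), Scd1 (the stearoyl-CoA desaturase), Mup3 (a major urinary protein, again from a family of near-identical genes whose reads may be split), Ttr (transthyretin, the thyroxine carrier), Gc and Apob. Scd1, a membrane enzyme, was the only one of these 10 whose product is not secreted. Apoe and Scd1 were abundant in aorta too, at 6845 and 1233 CPM, and the other 8 were at most 143 CPM there.

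The aorta list was led by osteopontin. Spp1 (chromosome 5, 104435118 to 104441050, plus strand), a secreted phosphoprotein of macrophages, smooth muscle and bone, took 1.43% of aorta counts, with 9309, 12672 and 9889 CPM in the 3 aortas and 89.9 to 127 CPM in the livers. Fibronectin (Fn1, an adhesive matrix protein), Apoe, prosaposin (Psap) and the lysosomal proteases Ctsb and Ctsd followed. Ranks 7 to 10 were held by ferritin light chain (Ftl1, 6 pseudogene copies), collagen type III (Col3a1), the elongation factor Eef1a1 (19 copies) and elastin (Eln). Lysosomal and matrix genes thus shared the top of the aorta list, and Apoe was the only feature among the 10 most abundant of both tissues.

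**Figure D3:**
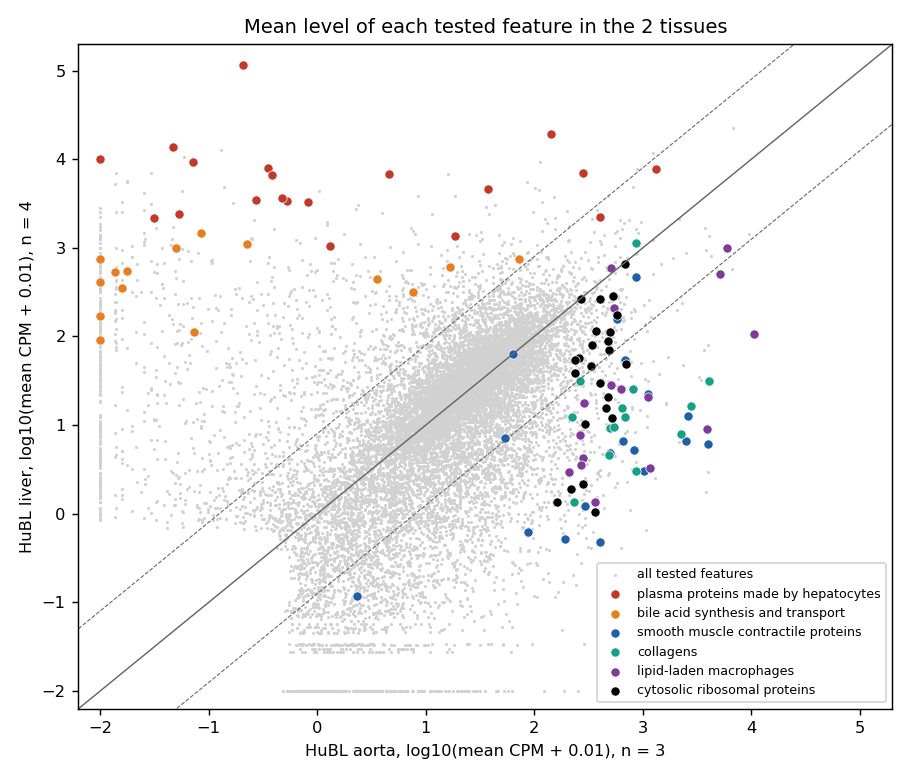
Mean level of every tested feature in aorta (horizontal axis, n = 3) and liver (vertical axis, n = 4), as log10 of CPM + 0.01; the solid line marks equal levels and the dashed lines 8-fold differences, and 6 gene lists are coloured. Hepatocyte plasma proteins and bile acid genes lie high and to the left, smooth muscle, collagen and macrophage genes low and to the right, with Apoe, C3 and a few others high on both axes.

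Plasma proteins of the hepatocyte separated the tissues most in amount. All 20 listed genes were higher in liver, 18 of them by at least 8-fold, with a median log2 fold change of -12.90; together they made up 17.1% to 20.5% of liver counts and 0.282% to 0.327% of aorta counts. Apoa1 was at 13580, 14182, 12469 and 14288 CPM in liver and at 0.0805, 0.0179 and 0.0116 CPM in aorta. Ttr had 0 counts in all 3 aortas and 8688 to 12305 CPM in liver, which makes it at least 776025-fold lower in aorta with 3 counts over the 3 aortas as the limit. Not every member of the list was near 0 in the vessel. C3, the central complement protein, was at 1259, 1484 and 1256 CPM in aorta, rank 37 there, against 6667 to 8712 CPM in liver (log2 fold change -2.56, SE 0.15). Itih4, an inter-alpha-trypsin inhibitor chain, stood at 345 to 453 CPM in aorta and 1826 to 2624 CPM in liver, and haptoglobin (Hp), the haemoglobin scavenger, at 253 to 325 CPM and 5564 to 8943 CPM. In each of these the tissues did not overlap.

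Clotting genes were listed by their presumed site of synthesis, and the lists went opposite ways. All 18 listed factors and inhibitors of hepatocyte origin were higher in liver, 17 by at least 8-fold, with a median of -14.38. Prothrombin (F2) had 2054 to 2491 CPM in liver and 0 counts in every aorta. The fibrinogen alpha chain (Fga) had 5585 to 7971 CPM in liver and a single count over the 3 aortas, a ratio of 1572761 with a 95% counting interval of 282278 to 62120942. Of 12 regulators of the vessel wall, in contrast, 11 were higher in aorta, 8 by at least 8-fold, with a median of 4.82. Von Willebrand factor (Vwf), the platelet adhesion protein of endothelium, was at 287, 269 and 289 CPM in aorta and 3.99 to 7.61 CPM in liver. Serpine2, a tissue inhibitor of thrombin, reached 811 to 847 CPM in aorta. The exception was coagulation factor VIII (F8), which liver endothelium makes, at 1.18 CPM in aorta and 9.31 CPM in liver. Protein S (Pros1) was nearly level, at 126 to 142 CPM in aorta and 89.1 to 111 CPM in liver, and its direction turned under the ribosomal and proteasome scaling.

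Genes that handle lipoproteins were split between the tissues. Of 21 listed genes, 16 were higher in liver, 12 by at least 8-fold, and 5 higher in aorta, with a median of -4.25. Apob, the backbone protein of low density lipoprotein (chromosome 12, 7977648 to 8016835, plus strand), was at 9160, 9321, 10045 and 8727 CPM in liver and 117, 119 and 100 CPM in aorta; whether reads of the human transgene enter this mouse feature was not tested. Apoe (chromosome 7, 19696109 to 19699188, minus strand) was at 6529, 7182 and 6823 CPM in aorta and 25271, 21159, 21124 and 22642 CPM in liver, a log2 fold change of -1.72 (SE 0.15), with rank 3 in aorta and rank 2 in liver.

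On the aorta side of the lipoprotein list were genes of lipid uptake and export in peripheral cells. Lipoprotein lipase (Lpl), which frees fatty acids from triglyceride-rich particles, was at 1349, 1058 and 1126 CPM in aorta and 129 to 229 CPM in liver (log2 fold change 2.80, SE 0.19). Vldlr, a receptor for such particles, was at 31.9 to 43.3 CPM in aorta and 0.668 to 3.47 CPM in liver, the large aorta-higher call of the list (4.46, SE 0.42, and 5.22 without liver library 4). The cholesterol exporter Abca1, the scavenger receptor Lrp1 and the phospholipid transfer protein Pltp were also higher in aorta, with log2 fold changes of 1.06, 1.17 and 1.34; under the ribosomal and proteasome scaling the first 2 turned and none of the 3 passed the test.

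Bile acid and cholesterol genes belonged to the liver. All 15 genes of bile acid synthesis and transport were higher there by at least 8-fold, and 7 of them had 3 or fewer counts over the 3 aortas; the median was -13.59 with those genes at their bound or ratio and -14.81 as fitted. The bile acid uptake carrier Slc10a1 had 642 to 919 CPM in liver and 0 counts in aorta, and the export pump Abcb11 919 to 1132 CPM against at most 0.107 CPM. Cyp7a1, the rate-limiting enzyme of bile acid synthesis, varied among livers, with 80.3, 387, 99.5 and 115 CPM, and had 0 counts in all aortas. Of 15 tested genes of cholesterol synthesis, 14 were higher in liver, 12 by at least 8-fold, with a median of -3.89. In liver library 1 the summed level of the list was 2290 CPM against 3168 to 3721 CPM in the other 3; aortas had 169 to 202 CPM. Idi1 (4 pseudogene copies) did not pass the test, at 2.53 CPM in aorta and 3.32 CPM in liver, and passed without liver library 1 (log2 fold change -0.69).

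Nitrogen, sugar and detoxification genes followed the same pattern. All 18 genes of the urea cycle and amino acid breakdown were higher in liver, 17 by at least 8-fold (median -10.86). The tyrosine-degrading enzymes Hpd and Tat had 1723 to 2179 CPM and 1081 to 1704 CPM in liver and 0 counts in every aorta. Arginase 1 (Arg1), which splits off urea, was at 1263 to 1601 CPM in liver and 1.36 to 2.45 CPM in aorta. All 13 genes of glucose production and glycogen were large liver-higher calls (median -6.95). Pck1, which commits carbon to glucose, was still measurable in aorta at 27.4 to 48.6 CPM, against 2158 to 3019 CPM in liver. G6pc, which releases free glucose, varied among livers with 900, 630, 168 and 1144 CPM. Of 15 tested cytochrome P450 genes, 13 were large liver-higher calls, with a median of -15.14 with genes of 0 to 3 aorta counts at their bound or ratio. Cyp2e1 led them with 6169 to 7488 CPM in liver and 11.5 to 21 CPM in aorta. Cyp1b1, the family member known from vessels and stroma, went the other way, at 171, 218 and 229 CPM in aorta and 1.41 to 3.8 CPM in liver (log2 fold change 6.28, SE 0.23).

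Energy metabolism differed by less. Of 15 genes of fatty acid oxidation and ketone synthesis, 14 were higher in liver, 8 by at least 8-fold, with a median of -3.12. Hadhb, a subunit of the mitochondrial oxidation complex, went against the list with 82.7 to 117 CPM in aorta and 31.6 to 34.5 CPM in liver, although its partner subunit Hadha was at 140 CPM in aorta and 335 CPM in liver. Of 20 nuclear genes of the respiratory chain 18 were higher in liver, none by 8-fold, with a median of -1.58. Cycs, cytochrome c, with 10 pseudogene copies, was the one that was higher in aorta. Sdha, with 0 copies, was at 172 to 195 CPM in aorta and 600 to 650 CPM in liver.

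The transcription factors of hepatocytes were higher in liver as well. All 15 listed factors were higher in liver, 14 by at least 8-fold, with a median of -10.81. Hnf4a, a nuclear receptor that holds hepatocyte identity, was at 832, 690, 825 and 686 CPM in liver and 0.046, 0.0714 and 0.0116 CPM in aorta. Cebpa was the mildest, at 325 to 449 CPM in liver and 93.8 to 101 CPM in aorta. Among 18 factors of vessel and mesenchyme, 16 were higher in aorta, 12 by at least 8-fold (median 4.59). The mesenchymal homeobox factor Prrx1 was at 79.1 to 90.1 CPM in aorta and 0.347 to 0.954 CPM in liver, and Srf, which binds the CArG box, at 54 to 64.8 CPM and 16.4 to 19.2 CPM. Myocd, the smooth muscle partner of Srf, was at 9.03 to 10.6 CPM in aorta with a single count over the livers. Tcf21 went against the list, at 0.495 to 0.779 CPM in aorta and 4.86 to 6.34 CPM in liver. All 21 tested Hox genes, the position factors of the body axis, were higher in aorta, 17 by at least 8-fold (median 4.04 with 9 genes at their bound or ratio, 5.33 as fitted), with Hoxa3 highest at 14.4 to 17.1 CPM and 0.381 to 1.53 CPM in liver.

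Smooth muscle genes dominated the contractile side. Of 18 listed genes, 17 were higher in aorta, 14 by at least 8-fold, with a median of 6.94, and they took 2.08% to 2.45% of aorta counts and 0.0614% to 0.0681% of liver counts. Acta2 (chromosome 19, 34241090 to 34255590, minus strand), whose start-site window is printed above, was at 4447, 3956 and 3612 CPM in aorta and 4.22, 3.91, 11.7 and 4.93 CPM in liver (log2 fold change 9.35, SE 0.32). Myosin heavy chain 11 (Myh11) was at 2894, 2045 and 2619 CPM in aorta and 3.33 to 14.4 CPM in liver, and Myl9 at 910 to 1105 CPM and 2.19 to 3.99 CPM. Liver library 3 was the highest liver for Acta2, Myh11 and Myl9. Myl6, a light chain made in most cells and with 5 pseudogene copies, was at 990 to 1199 CPM in aorta and 15.6 to 31.2 CPM in liver.

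The matrix of the wall gave the next group. All 15 genes of elastic fibres and crosslinking were higher in aorta, 14 by at least 8-fold (median 6.70). Eln (chromosome 5, 134702593 to 134747323, minus strand), the elastic protein itself, was at 4228, 3549 and 4224 CPM in aorta and 1.96, 1.24, 5.94 and 2.71 CPM in liver (log2 fold change 10.41, SE 0.36). Fibulin 5 (Fbln5), which organises elastic fibres, was at 518 to 578 CPM and 3.62 to 5.94 CPM. Of 14 collagen genes, 13 were large aorta-higher calls (median 5.80). Col3a1 was at 3909 to 4354 CPM in aorta and 24.5 to 47 CPM in liver, and Col1a1 at 1838 to 2564 CPM and 3.99 to 13.4 CPM. Col18a1, a basement membrane collagen that hepatocytes also make, was the exception, at 814 to 891 CPM in aorta and 999 to 1317 CPM in liver, an order that turned without scaling beyond library totals.

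Proteoglycans and matricellular proteins were more abundant still, at 3.64% to 3.71% of aorta counts and 0.129% to 0.168% of liver counts, and all 17 were higher in aorta, 16 by at least 8-fold (median 5.67). Biglycan (Bgn) was at 3842 to 4078 CPM in aorta and 73.8 to 91.4 CPM in liver. Fn1, which hepatocytes secrete into plasma, had the smallest difference of the list, at 9465, 9607 and 9722 CPM in aorta and 1253, 1721, 1451 and 1327 CPM in liver (2.74, SE 0.15).

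Genes of cartilage and calcification were called in aorta as well. Of 12 tested members 10 were higher in aorta and 9 of these by at least 8-fold, with a median of 8.34 with 6 genes at their bound or ratio and 11.23 as fitted. Matrix Gla protein (Mgp), an inhibitor of calcification, was at 3533, 4686 and 3350 CPM in aorta and 1.25 to 2.13 CPM in liver. Col2a1, the collagen of cartilage, was at 71.4, 33 and 78.9 CPM in aorta with a single count over the livers, and the cartilage protein Comp at 145 to 163 CPM in aorta and at most 0.191 CPM in liver. Sclerostin (Sost), a bone-derived inhibitor of Wnt signalling, was at 270, 118 and 173 CPM in aorta and 0 counts in every liver, at least 3171-fold higher. Sox9, the cartilage and bile duct factor, was higher in liver, at 44.4 CPM against 11.4 CPM.

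The 12 largest fitted fold changes toward aorta among features of at least 100 CPM there were, in alphabetical order, those of Actg1, Cbr2, Ccn3, Comp, Cspg4, Eln, Mgp, Mmp3, Sfrp2, Sfrp4, Sost and Susd5. For genes with few or 0 counts in the other tissue the fitted value depends on the prior count, so the 12 are not ranked; that of Sfrp4 moved from 11.99 to 15.96 without liver library 1. Susd5, a membrane protein with a sushi domain, was at 288, 222 and 242 CPM and Cbr2, a carbonyl reductase, at 136, 123 and 110 CPM, both with 0 counts in all livers, at least 4110-fold and 1988-fold higher. Sfrp2, a secreted Wnt antagonist, was at 278 to 298 CPM with a single count over the livers, in liver library 2, a ratio of 13963 with a 95% counting interval of 2506 to 551511. Mmp3, a matrix protease, was at 949, 1179 and 888 CPM in aorta and at most 0.557 CPM in liver. Actg1, the actin of most cells, belongs to this list only by its 0.371 to 0.833 CPM in liver; it has 13 copies and its feature name carries a mark for overlap with another gene. Toward liver the 12 were Akr1c6, Alb, Ces1c, F2, Fabp1, Fga, Fgg, Hpd, Mat1a, Pzp, Rdh7 and Ttr, of which Ttr, Mat1a, Ces1c, F2, Hpd, Rdh7 and Akr1c6 had 0 counts in all aortas. Membership depends on the prior count too: Cps1, outside the 12, had a log2 ratio of -19.50 from a single aorta count, against -19.27 for Fgg from 2 counts.

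Macrophage genes were high in aorta. All 14 general macrophage genes were higher there, 11 by at least 8-fold (median 3.61), and 15 of 16 genes of lipid-laden macrophages, 13 by at least 8-fold (median 5.41). The latter took 4.08% to 4.66% of aorta counts and 0.193% to 0.208% of liver counts. Gpnmb, a membrane glycoprotein of lipid-filled macrophages, was at 3764, 4167 and 3792 CPM in aorta and 7.82 to 9.63 CPM in liver (log2 fold change 8.78, SE 0.13). Lysozyme (Lyz2) was at 3351, 3870 and 3781 CPM in aorta and 57.5 to 87.1 CPM in liver, and the receptor Trem2 at 192 to 223 CPM and 2.57 to 3.44 CPM. Mpeg1, a pore-forming protein of macrophages, differed least of the general list, at 1128 to 1323 CPM in aorta and 328 to 676 CPM in liver, and did not pass under the ribosomal and proteasome scaling. The lipid droplet coat Plin2 did not pass the test, at 458 to 590 CPM in aorta and 487 to 646 CPM in liver, and it passed without aorta library 1 (log2 fold change -0.34) or liver library 2 (-0.32). Several of these genes are made by other cells of the wall too: Spp1 and Ctsb by smooth muscle, and Fabp4 by adipocytes and capillary endothelium.

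Kupffer cell genes were divided. Of 10 genes, 6 were higher in liver, 5 by at least 8-fold, and 4 higher in aorta. Clec4f, the lectin that marks Kupffer cells, was at 174, 131, 111 and 129 CPM in liver and 0 counts in aorta, at least 10474-fold lower. Marco and Timd4, scavenger and phosphatidylserine receptors, were at 57.1 to 152 CPM and 8.47 to 17.8 CPM in liver and below 1 CPM in aorta. Cd5l, a secreted protein of tissue macrophages, was higher in aorta, at 1052, 1026 and 1014 CPM against 190 to 309 CPM. Liver library 1 was the highest liver for Clec4f, Marco, Timd4 and Cd5l, and its summed level of the list was 1136 CPM against 753 to 806 CPM.

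Endothelial genes showed smaller differences than muscle or matrix. Of 12 general endothelial genes, 10 were higher in aorta and only 2 by at least 8-fold, with a median of 1.77. Pecam1, a junction protein, was at 291, 252 and 260 CPM in aorta and 15.6 to 20.3 CPM in liver, and VE-cadherin (Cdh5) at 62.4 to 64.1 CPM and 14.7 to 15.8 CPM. Erg, an endothelial transcription factor, was the other large call at 50.9 to 63.7 CPM and 1.72 to 3.06 CPM. Robo4 and Kdr were higher in liver, at 11.8 and 15.9 CPM against 3.55 and 10.7 CPM, and Kdr turned without scaling beyond library totals. Of 12 genes of liver sinusoidal endothelium, 10 were higher in liver, 5 by at least 8-fold (median -2.86). Clec4g was at 40.9 to 48.1 CPM in liver and at most 0.046 CPM in aorta, and Dnase1l3, a secreted DNase, at 26.7 to 45.6 CPM and 0.782 to 1.26 CPM. Lyve1 did not pass the test, at 9.9 CPM in aorta and 9.37 CPM in liver.

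Genes of the outer layer were mostly higher in aorta, and those of fat went both ways. Of 10 adventitial fibroblast genes, 7 were large aorta-higher calls. Pi16, a marker of these cells, was at 116, 139 and 131 CPM in aorta and 0.278 to 0.626 CPM in liver. Dpp4 and Serpinf1, both in that list, were higher in liver, at 151 and 886 CPM against 4.37 and 86.3 CPM. Of 10 tested white adipocyte genes 8 were higher in aorta, 5 by at least 8-fold, and 2 higher in liver (median 3.66). Of 8 brown adipocyte genes 6 were higher in aorta, 5 by at least 8-fold, and 2 higher in liver by at least 8-fold (median 6.41). Adiponectin (Adipoq), the adipocyte hormone, was at 27.6, 29 and 16.5 CPM in aorta and 0 counts in liver, and the brown fat uncoupling protein Ucp1 at 47.3, 49.3 and 23.4 CPM with a single count over the livers. Aorta library 3 was the lowest aorta for both, and also for Fabp4 (178 against 288 and 330 CPM) and Scd1 (902 against 1487 and 1310 CPM). The summed level of the white adipocyte list was 488 CPM there against 602 and 666 CPM, and 3664 to 5102 CPM in liver, where nearly all of it was carbonic anhydrase 3 (Car3, 3548 to 4973 CPM). Elovl3, a fatty acid elongase of brown fat and liver, was also higher in liver, at 690 to 877 CPM against 2.44 to 5.05 CPM. So was Ppargc1a, a coactivator of mitochondrial genes, at 15.4 to 22.9 CPM against 1.04 to 1.87 CPM. Pparg, the adipocyte nuclear receptor, overlapped between tissues, at 15.1 to 23.7 CPM in liver and 12.4 to 15.5 CPM in aorta; its call was lost without aorta library 1 or 3 or liver library 1 or 4 and its direction turned without scaling beyond library totals. The part of fat around the vessel in any difference was not tested.

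Markers of other cell types were checked as whole lists. The 20 hepatocyte plasma protein genes summed to 2057 to 2445 CPM in aorta and 209976 to 269475 CPM in liver. Most of the aorta sum came from C3, Itih4 and Hp, whose levels are given above. Among the aortas, 5 of the 20 genes were highest in library 1, 11 in library 2 and 3 in library 3, and Ttr was at 0 counts in all 3. Alb reached 0.46 CPM in aorta library 1 and Vtn 0.928 CPM in library 2. Of 16 striated muscle genes 6 could be tested, and their summed level was 18.2 to 19.7 CPM in aorta and 1.53 to 3.06 CPM in liver, with Myh2 and Myh4 at 0 counts in all 7 libraries. Of 9 nerve and Schwann cell genes 5 could be tested and 4 were higher in aorta, where the sum was 209 to 231 CPM against 9.65 to 12.8 CPM, most of it from Pmp22. Stellate cell genes went both ways, 4 higher in aorta and 4 in liver: Lrat, the vitamin A storing enzyme, was at 18.1 to 29.4 CPM in liver and at most 0.069 CPM in aorta, whereas Pdgfrb, shared with mural cells, was at 234 to 261 CPM in aorta and 9.07 to 13.3 CPM in liver. Of 7 tested bile duct genes 5 were higher in liver, with sums of 183 to 237 CPM against 38.5 to 43.1 CPM. Alas2, of red cell haem synthesis, was at 62.1 to 105 CPM in liver and 2.72 to 4.71 CPM in aorta, and the haemoglobin gene Hbb-bs is listed at 0 in all 7 libraries. The Y-linked gene Ddx3y was at 77.4 to 81.3 CPM in aorta and 115 to 168 CPM in liver and Xist was at most 0.235 CPM, so all 7 libraries carried the male pattern.

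T cell genes were low in both tissues, and antibody genes were higher in aorta. Of 10 tested T cell genes 3 were higher in aorta, 3 higher in liver and 4 did not pass, and in 6 of them the libraries overlapped; the summed level was 23.7 to 27.3 CPM in aorta and 17.2 to 36.5 CPM in liver. Cd4, also made by macrophages, was at 9.11 to 10.7 CPM in aorta and 3.13 to 4.67 CPM in liver, and Cd8a at 2.09 to 3.06 CPM and 2.86 to 8.07 CPM; the call for Cd8a (-1.02, SE 0.33) was lost without aorta library 1 or 2. The summed level of the B and plasma cell list was 643 to 1051 CPM in aorta and 125 to 289 CPM in liver, and of its 11 genes 7 were higher in aorta and 2 in liver. Igkc, the kappa constant region, was at 216, 436 and 337 CPM in aorta and 29.9 to 61.7 CPM in liver (2.97, SE 0.32), and Jchain at 94.4 to 152 CPM and 10.9 to 24.3 CPM. Ighm was at 237, 89 and 396 CPM in aorta and 31.5 to 103 CPM in liver, which overlap, and its call was lost when aorta library 1 or 3 or liver library 1, 2 or 4 was left out. None of the 11 B and plasma cell genes differed by 8-fold, and 5 overlapped.

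Pairs of related genes were compared inside each library, where scaling between tissues has no part. Each pair had a form known from hepatocytes and a form known from other tissues, and the measure was the log2 ratio of the first to the second. In 17 of 19 pairs the ratio was higher in every liver library than in every aorta library, and in 15 the hepatocyte form was ahead in every liver and behind in every aorta. The fatty acid binding proteins switched furthest: the ratio of Fabp1 to Fabp4 was -14.03, -15.17 and -14.90 in aorta and 9.19, 9.32, 9.55 and 9.51 in liver. For the connexins Gjb1 and Gja1 it was -15.35 to -12.20 in aorta and 6.70 to 7.59 in liver. Slc2a2 over Slc2a1, the glucose transporters, moved from between -11.45 and -10.70 in aorta to between 4.23 and 5.08 in liver. In pairs with a member near 0 counts the size of the ratio depends on the 0.5 added to each count.

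Exceptions took different forms. The phosphofructokinases Pfkl and Pfkm (0.77 to 0.90 in aorta, 0.36 to 0.96 in liver) and the carnitine transferases Cpt1a and Cpt1b (8.92 to 9.59 and 8.57 to 9.89) overlapped between tissues. Arginases and acyl-CoA synthetases shifted without a switch, since Arg1 and Acsl1 led in every library. In 2 pairs the other member has 3 or more pseudogene copies: Pkm (9 copies) and Cdh11 (7).

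**Figure D4:**
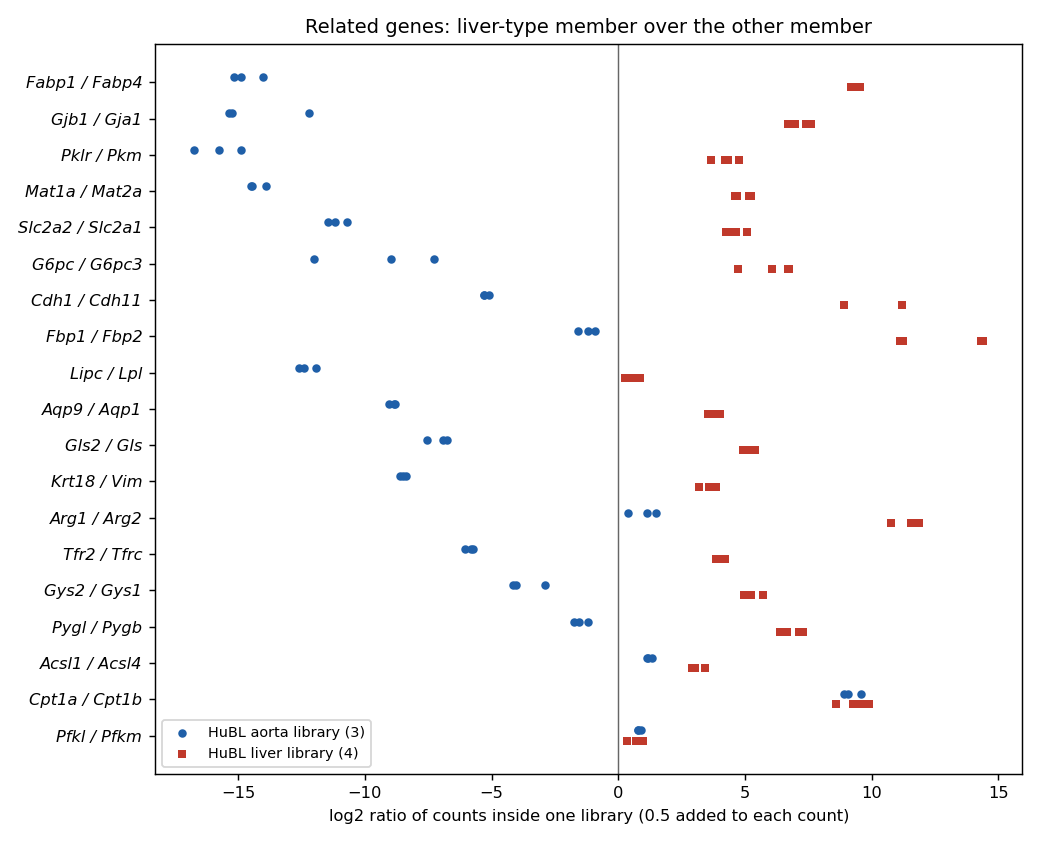
Log2 ratio of counts of a hepatocyte-type gene to its relative inside each library (horizontal axis), for 19 pairs (vertical axis), with 0.5 added to each count; circles are the 3 aorta libraries and squares the 4 liver libraries. Circles lie left of squares in 17 pairs, and the 2 lowest pairs overlap.

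Genes that every cell uses gave no common reference, since the ribosomal list pointed to aorta and the proteasome list to liver. Of 24 cytosolic ribosomal protein genes, 22 were higher in aorta, 10 by at least 8-fold, with a median of 2.69; the median was 0.74 for the 6 members with at most 2 pseudogene copies, 2.61 for the 5 with 3 to 9 and 4.52 for the 13 with 10 or more. Rpl4, with 1 copy, was at 638 to 763 CPM in aorta and 612 to 731 CPM in liver, which overlap. Of 20 proteasome subunits 15 were higher in liver, none by 8-fold, with a median of -0.68 that became 0.08 without scaling beyond library totals. Psma3, with 3 copies, went the other way, at 85 to 107 CPM in aorta and 8.35 to 11.2 CPM in liver. Psmd2 was at 180 to 188 CPM in aorta and 166 to 193 CPM in liver.

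Genes that respond to time of day and to handling of tissue were read as well. Of 14 clock genes 4 were higher in aorta, 6 higher in liver and 4 did not pass, and 5 overlapped. Nr1d1 was at 64.4 to 70.6 CPM in aorta and 25.3, 58.7, 89.1 and 58.5 CPM in liver. Of 11 immediate early genes 8 were higher in aorta, 3 by at least 8-fold (median 1.91): Atf3 was at 90.6 to 108 CPM in aorta and 2.69 to 5.08 CPM in liver, Jun at 126 to 161 CPM and 18.8 to 52.3 CPM, and Egr1 at 86 to 105 CPM and 8.77 to 40.7 CPM. Their part in other differences was not tested.

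**Figure D5:**
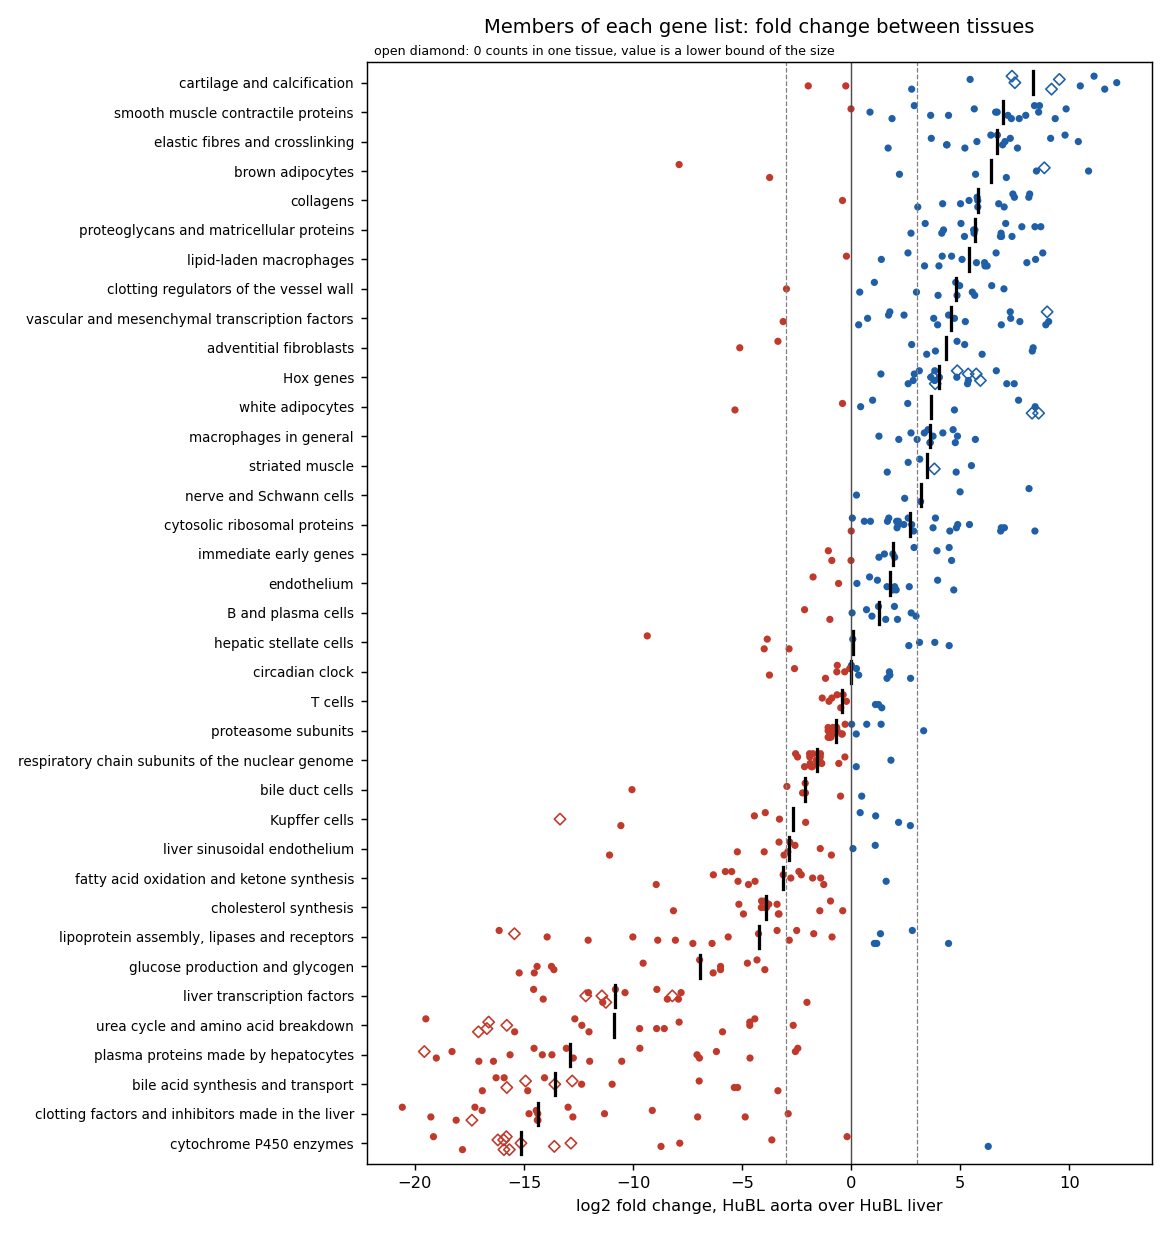
Log2 fold change of aorta over liver (horizontal axis) for the tested members of each gene list with at least 5 such members (vertical axis, ordered by median). Points are genes, black bars list medians, open diamonds lower bounds for genes with 0 counts in 1 tissue, and dashed lines 8-fold; the medians run from -15.14 for cytochrome P450 enzymes to 8.34 for cartilage and calcification.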

How the data were processed

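RNA of the 3 HuBL aortas and 4 HuBL livers was sequenced after extraction with a Qiagen kit, from libraries of Lexogen QuantSeq V2, per the labels' protocols. The values deposited by the authors are raw counts per feature, not normalized; HTSeq 2.0 and the build GRCm38 are named in the submitters' processing notes, while for aligner, strand setting and annotation no source used here gives a name. The tables of the 2 tissues were joined on feature name (24732 features, the same in both), and 1319 older names were shown under the current RefSeq symbol. Positions are from GENCODE M21 by symbol. Some feature names carry marks that no source used here explains; the one read as overlap is on 1954 tested features.

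Counts were fitted with edgeR 4.0.16 in R 4.3.3: filterByExpr kept 14445 features and left out 10287, TMM factors were 1.34 to 1.37 in aorta and 0.761 to 0.828 in liver, and a robust quasi-likelihood F-test, two-sided, compared the tissues over the 7 libraries, with Benjamini-Hochberg adjustment. CPM use the TMM-scaled sizes. Fold changes have a prior count of 0.125; with 0 counts in a tissue a bound against 3 counts over that tissue is given, and with 1 to 3 counts a ratio with an exact 95% interval, both for counting error only. No pair of libraries of a tissue matched to within counting error (chi-square per degree of freedom 12.9 to 47.2). That does not tell whether libraries shared RNA or an animal. The coefficient of variation between libraries, from the common dispersion, was 13.8% in aorta and 15.2% in liver.

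The members, the 39 gene lists (550 of 556 entries found) and the tests were chosen with earlier results of these data known. Named genes are the 10 most abundant per tissue, the 12 largest fitted differences per direction at 100 CPM or more in the higher tissue, up to 4 highest members per list and 3 against it, pair members, genes abundant in both tissues and sex-linked genes; 30 others in the text were chosen after their values were seen. Some genes the rule covers, and pairs that hold them, are not reported here. Pseudogene copies were counted by minimap2 alignment of GENCODE M21 pseudogene transcripts to coding transcripts (90% identity over 150 bases). Promoter windows of the smooth muscle and plasma protein lists were matched by symbol in RefSeq (14 of 18 and 15 of 20 genes).

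Alternatives were other scalings, other filters, DESeq2 1.42.0, limma-voom (limma 3.58.1), glmTreat, thinning, a replicate block, features left out and each library left out. Counts were simulated once for 14445 genes, with 200 genes changed and no other tissue difference. In these edgeR recovered 53.7%, 95.5% and 100% of 1.5-, 3- and 16-fold changes. Of its 187 calls 21 were false, a larger share than the 0.05 at which the adjusted p was cut. Far more genes differ in the data than in that setting, so this share may not carry over. A further simulation used the measured tissue means. It gave 3774 calls of at least 8-fold, of which 3608 were set at 8-fold or more and 0 had the wrong sign. Plots used matplotlib 3.10.9.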

Additional observations from a re-analysis of the deposited data

Results flagged for a closer look

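Over the 4 livers the highest and lowest library were set against the rest, and 17 of 206 values examined had a library standing apart by Dixon's criterion. Chance alone gives about 5% for independent normal values, which these are not. Some sums hold genes that were also examined singly, and a gene with counts in a single liver stands apart whatever its level. The 17 values are therefore not weighed against that share. Groups of 3 aortas are too small for it.

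Liver library 1 stood high in the summed level of lipoprotein genes (46615 CPM against 41750 to 41854 in the other 3), of Kupffer cell genes (1136 against 753 to 806) and of proteasome subunits (2880 against 2362 to 2443). It was also high for Alb (134321 CPM against 106750 to 109505), Ftl1 (1013 against 739 to 748) and the Kupffer cell receptor Marco (152 against 57.1 to 67.4). Liver library 2 stood high in bile acid genes (9425 CPM against 8334 to 8441), including the bile acid enzyme Cyp7a1 (387 against 80.3 to 115), and in the tyrosine enzyme Hpd (2179 against 1723 to 1755).

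Liver library 3 was high for the smooth muscle actin Acta2 (11.7 CPM against 3.91 to 4.93). In liver library 4, Cycs was low at 11.4 CPM against 12.6 to 12.8, and the log2 ratio of Cdh1 to Cdh11 was 11.2 against 8.89 to 8.92. Very few counts lie behind that ratio, since Cdh11 had 0 to 2 counts in each liver, and behind these single values: Sfrp2 and Ucp1 were at 0.0954 CPM in liver library 2, Sfrp4 at 0.156 CPM in library 1, Myocd at 0.0928 CPM in library 3 and Col2a1 at 0.0694 CPM in library 4, each with 0 in the other 3 livers.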

How the results depend on the processing

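The counts of large differences, 2407 toward aorta and 1352 toward liver, stayed within 1.5 times of these values in 20 of 21 alternatives each. Scaling to the ribosomal and proteasome genes gave 1578 and 2129. A stricter edgeR test against 8-fold itself gave 1916 and 1209. Leaving out each library in turn gave 2433 to 2553 and 1374 to 1404, and leaving out genes with 3 or more pseudogene copies, an alternative added after seeing the data, 2304 and 1338.

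Some fold changes below 8-fold changed sign, several of which had not passed the test. Under the ribosomal and proteasome scaling the log2 fold change became -0.79 for Pros1, -0.34 for Eng, -0.74 for Pnpla2, -1.13 for Rpl4, -0.30 for Rps3, -1.15 for Psmd2, -1.18 for Nr1d2, -0.39 for Pfkl, -0.49 for Pfkm, -0.65 for Mat2a, -0.51 for Tfrc, -0.12 for Abca1, -1.09 for Lyve1 and -0.02 for Lrp1 and Fth1. Without scaling beyond library totals it became 0.10 for Clock, 0.36 for Col18a1, 0.17 for Kdr, 0.35 for Pparg and 0.53 for Plin2, and the proteasome median became 0.08. The median over all features shifted by -1.17 and 0.76 under these scalings. The ribosomal genes behind the first scaling had a median of 0.74 with at most 2 pseudogene copies and 4.52 with 10 or more. The part of the copies in that shift was not tested.

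Deviations from the tissue mean correlated at 0.0296, -0.0359 and 0.281 between same-numbered aortas and livers. Between unlike numbers the correlations ran from -0.312 to 0.275. Libraries of the same animal need not deviate together, so these values do not settle whether the numbers pair the samples. With the replicate block over numbers 1 to 3 the counts were 2567 and 1379. Depth limits low genes: a gene at 0 counts in a tissue has only a bound.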
